A study of Mus musculus with 4 samples.

Results

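The genes described here lie on mouse chromosome 8 within 10 Mb on each side of Tlr3, the gene that was disrupted in the mutant mice. They are the gene names with an array probe between positions 36480000 and 56480000 (mm9), leaving out Tlr3 and the cytochrome P450 genes. Each gene name was represented by its brightest probe, and it was kept when the scanner software marked that probe as well above background on any of the 4 arrays. The window held 186 probes of 121 gene names, and 66 of these passed, of 18706 gene names that passed on the whole array. Position chose the gene names, and the background filter chose the members among them. No expression difference was used, but a gene bright in mutant or wild-type mice alone could pass through those arrays.

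Tlr3 encodes an endosomal receptor for double-stranded RNA. A gene disrupted in embryonic stem cells is passed on with the chromosome around it. When such mice are crossed to another strain, the stretch nearest the disrupted gene is the last to be exchanged, so alleles of its neighbours can differ between mutant and wild-type animals. The sources used here give no strain, no construction of the Tlr3 allele and no number of crosses.

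Alveolar type II cells, which make surfactant in the lung, were sorted by flow cytometry from mice labelled female. Wild-type (WT) and Tlr3-deficient mice were each studied without and with a tumor, which makes 4 groups. Tumor-bearing mice carried Lewis lung carcinoma cells placed under the skin, and lungs of all groups were taken 2 weeks later. Each group is 1 array of 1 colour, so differences have no replicate check and no test was made. The number of mice behind an array is not stated in the labels.

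Levels are log2 processed intensity minus the array's 75th percentile over gene probes. A difference is Tlr3-deficient minus WT, or with minus without tumor, on that log2 scale. A comparison took in the genes well above background on at least 1 of its 2 arrays, called tested here, and a gene 2-fold or more apart was called. If the probe was not well above background on 1 of the arrays, called dim here, only a bound can be given, written with "at least", from the brighter value to the higher of the dim value and the lowest signal well above background on the dim array. For the 52 members well above background on all 4 arrays, the scanner's own error put a standard error of 0.066 to 0.362 on a genotype difference. Replicate spots of the same probe gave the genotype difference a standard deviation of 0.293 without tumor and of 0.113 with tumor. These errors cover spots, not animals.

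Tlr3 was low on all arrays. Its brightest probe (chr8:46481729-46481788, minus strand) read -3.93 in WT without tumor, -3.94 in WT with tumor, -5.45 in Tlr3-deficient cells without tumor and -5.30 with tumor. It was at least 2.44-fold lower in Tlr3-deficient cells without tumor and 2.55-fold lower with tumor. The sources used here do not place this probe inside or outside the disrupted part of the gene. The authors' deposited value table gives this probe as 3.08, 10.5, 2.05 and 2.27 in the order of the levels above, in its own log2 units, so it is high in WT with tumor in that table and low on that array's scanner file. All 10 alveolar type II markers were well above background on every array, with median levels of 6.71 to 7.38. The array labelled Tlr3-deficient without tumor went against its label of female. The Y-linked Ddx3y read 1.08 there and -7.57 to -7.40 elsewhere, and Xist read -4.05 there and 3.8 to 4.05 elsewhere. The arrays lay on 3 slides, with WT with tumor and Tlr3-deficient without tumor on the same slide. Each genotype comparison thus sets different slides against each other. The genotype comparison with tumor does not use the array with Y-linked transcripts.

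The probes of the 8 members that differed at least 2-fold the same way in both tumor states carry the main result. The middle stretch of each probe, bases 16 to 45 of 60, is shown 5′ to 3′ as the array files give it, in order along the chromosome, with no base singled out. Positions are those of the whole probe on mm9.
Eri1 (chr8:36530309-36530368, minus strand): catactgtctggaggctaacagtgggagct
Trmt9b (chr8:37575761-37575820, plus strand): cgcatcttcctaattgttgagtaagcacga
NAP062964-1 (chr8:38217901-38217960, plus strand): cgggaaaccaagtacagatggagagtatgg
AK034021 (chr8:40195695-40195754, plus strand): acatgtgaatttttcaaaggtgtcttactt
Gm6213 (chr8:40453492-40453551, plus strand): tagtgtgcattctagttaagatgtgtacct
Mtmr7 (chr8:41636780-41636839, minus strand): tgagaaatggcaagttctatccagaaccat
Pdlim3 (chr8:47004658-47004717, plus strand): tgtaaatacctggatatttgggggagtcta
Cenpu (chr8:47659228-47661602, plus strand): aagtccaggatgaactgattcgattagaac
The Cenpu probe covers a span longer than its 60 bases, as the array annotation places it. No probe of another gene name on the array shared a run of 16 or more bases with these probes, except for 1 probe that shared 16 bases with that of Pdlim3.

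Gm6213, a long non-coding RNA of unknown function, had the largest genotype difference among the members. It read 1.56 in WT without tumor and 1.71 in WT with tumor, against -7.24 and -7.52 in Tlr3-deficient cells, where it was not well above background. Both WT arrays were bright and both Tlr3-deficient arrays dim. The gene was at least 110-fold lower without tumor and at least 139-fold lower with tumor. AK034021, a cDNA clone with no assigned product, lay close by, 6.28 Mb before Tlr3 against 6.03 Mb for Gm6213. It read -2.84 and -2.38 in WT and -6.82 and -7.51 in Tlr3-deficient cells, in the order without and with tumor. It was at least 5.20-fold and at least 8.20-fold lower.

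Mtmr7, a phosphoinositide phosphatase of the myotubularin family, was also well above background in WT alone. Its levels were -3.46 without and -3.32 with tumor in WT, and -6.39 and -5.75 in Tlr3-deficient cells. It was at least 3.38-fold and at least 4.27-fold lower. NAP062964-1, a transcript known here only by its array name, was measured on all arrays. It read -2.48 and -2.51 in WT and -4.11 and -4.15 in Tlr3-deficient cells, which made it 3.1-fold and 3.13-fold lower. Within a genotype its arrays differed by -0.03 in WT and -0.04 in Tlr3-deficient cells.

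Eri1, an exoribonuclease that trims histone mRNAs and small RNAs, sat at the limit. It read 1.58 and 1.22 in WT and 0.58 and -0.11 in Tlr3-deficient cells, without and with tumor. It was 2.01-fold lower without tumor and 2.51-fold lower with tumor. The call without tumor, at -1.0, ended at -0.96 with quantile normalization, -0.95 with normexp and -0.97 in the authors' deposited table. With the mean of all its probes Eri1 fell under 2-fold in both states, at -0.65 and -0.73.

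Among members well above background on all arrays and higher in Tlr3-deficient cells, Pdlim3 differed most without tumor and Trmt9b most with tumor. Pdlim3 encodes a PDZ and LIM protein of the actin cytoskeleton. It read -1.23 and -1.0 in WT and 1.48 and 0.46 in Tlr3-deficient cells, without and with tumor. It was 6.55-fold higher without tumor and 2.74-fold higher with tumor. Trmt9b, a tRNA methyltransferase relative, read -3.0 and -2.56 in WT and -0.82 and -0.06 in Tlr3-deficient cells. It was 4.54-fold and 5.67-fold higher. Cenpu, a subunit of the centromere-associated protein network, read -1.95 and -1.77 in WT and -0.84 and -0.44 in Tlr3-deficient cells. It was 2.15-fold and 2.52-fold higher. The call that chose the 8 members requires WT and Tlr3-deficient levels to lie apart within each tumor state, so that separation is no further result.

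The slide that held both genotypes carried WT with tumor and Tlr3-deficient without tumor, so on it genotype and tumor state differ together. This comparison was chosen after the values were seen, and its arrays also chose the 8 members, so it is a description. On that slide, Gm6213 was at least 121-fold lower in Tlr3-deficient cells, AK034021 at least 7.14-fold and Mtmr7 at least 3.73-fold lower, and NAP062964-1 3.04-fold lower. Pdlim3 was 5.57-fold and Trmt9b 3.34-fold higher. Eri1 was 1.56-fold lower and Cenpu 1.91-fold higher, both under 2-fold. The directions were those seen across slides, which the choice of the members by these same arrays favours. No share of all genes is given for this pair of arrays.

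**Figure D1:**
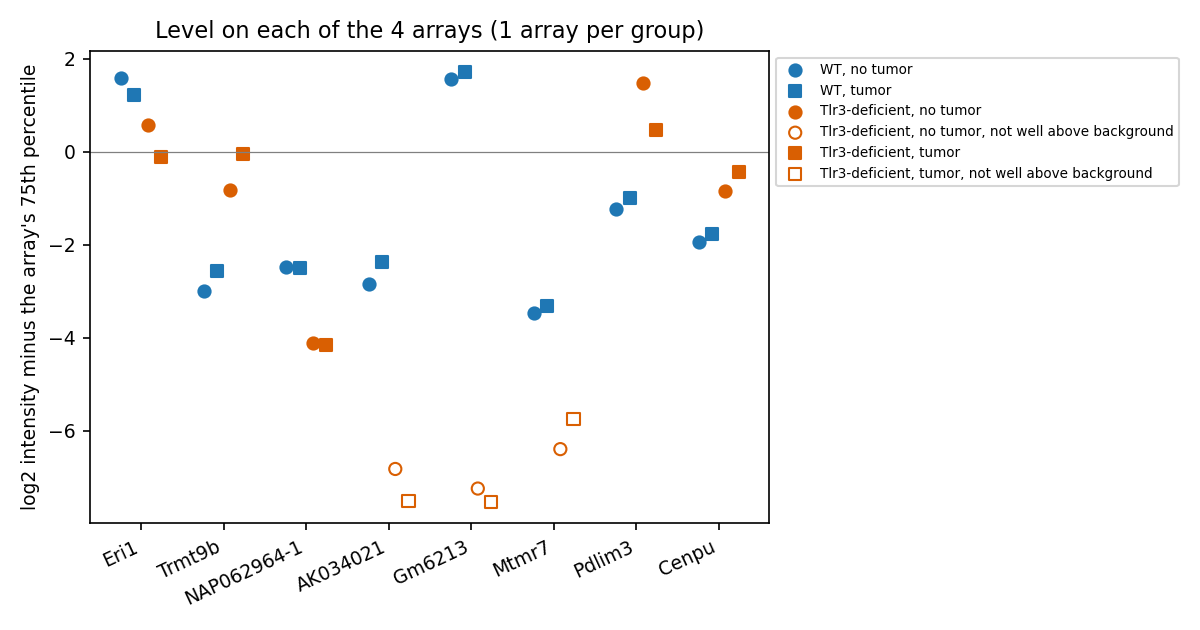
Level on each of the 4 arrays of the 8 members at least 2-fold apart between genotypes the same way in both tumor states, as log2 intensity minus the array's 75th percentile; open symbols are not well above background. Gm6213 reads 1.56 and 1.71 in WT and -7.24 and -7.52 in Tlr3-deficient cells, and Pdlim3, Trmt9b and Cenpu are higher on both Tlr3-deficient arrays.

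Without tumor, 14 of 61 tested members differed at least 2-fold between genotypes, 23.0%, against 8.25% of all 17481 genes tested. Of these, 7 were higher in Tlr3-deficient cells (background 5.91%) and 7 lower (background 2.35%). With tumor, 17 of 66 differed, 25.8%, against 5.52% of 18119 genes. Here 5 were higher (background 2.90%) and 12 lower (background 2.62%). The median size of the difference was 0.57 for members and 0.29 for all genes without tumor, and 0.49 and 0.20 with tumor. These medians take dim values as read. With bounds in their place, they were 0.46 and 0.29 without tumor, and 0.47 and 0.20 with tumor. The signed median of the members was near 0 in both, at 0.11 without and -0.12 with tumor, so neighbours of Tlr3 differed in either direction.

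The 2 genotype comparisons share no array. Of 61 members tested in both, 8 were at least 2-fold the same way in both, 13.1%, against 1.16% of 16894 genes and 0.763% of 786 genes on the rest of chromosome 8. None of the 61 went opposite ways at that size. Of the 8, Gm6213, AK034021 and Mtmr7 passed the background filter on WT arrays alone. Among the 52 members well above background on all 4 arrays, 5 were at least 2-fold the same way, 9.62%, against 0.875% of 15657 genes. Among members tested in both, 14 were called without tumor and 14 with tumor, and the 8 are 57.1% of each. For all genes tested in both, the shares were 16.3% of 1199 and 29.3% of 670. Over the 52 members well above background on all 4 arrays, the 2 differences correlated at r = 0.81, with a rank correlation (Spearman) of 0.69 and 34 of the same sign (65.4%, against 57.1% of all genes). The same values were 0.40 and 0.24 over 743 genes of the rest of chromosome 8, and 0.30 and 0.20 over all 15657 genes. These correlations run across genes, which are not replicates, and genes of a pair of arrays share that pair's scaling and slides.

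**Figure D2:**
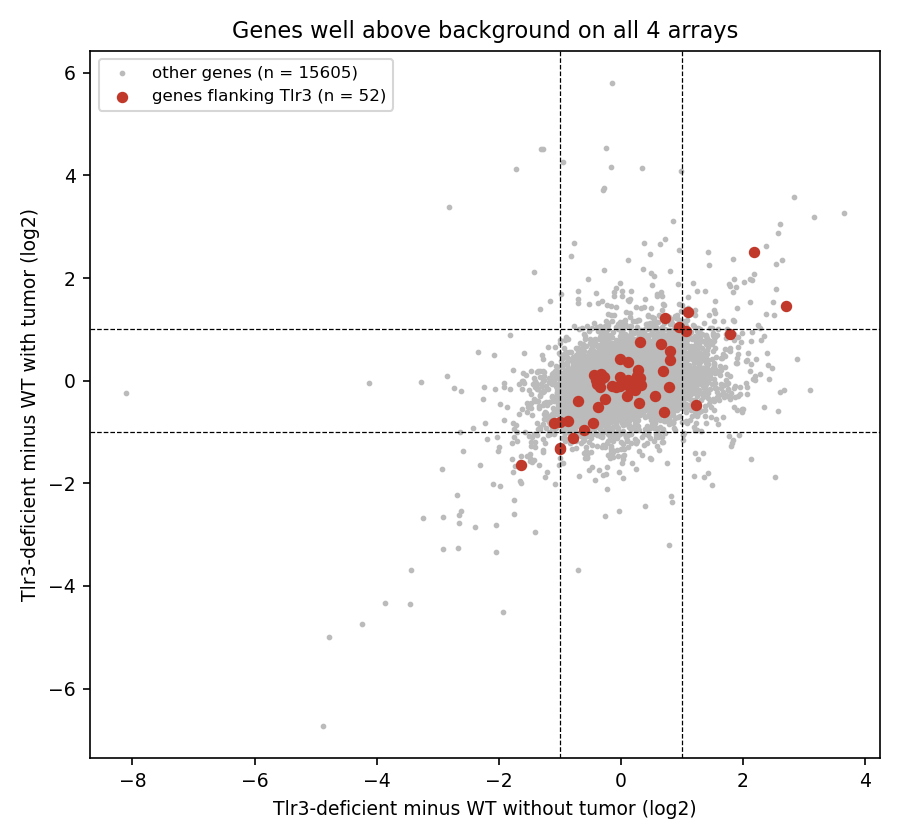
Genotype difference without tumor (x axis) against the difference with tumor (y axis), both Tlr3-deficient minus WT in log2, for genes well above background on all 4 arrays; dashed lines mark 2-fold. The 52 genes flanking Tlr3 (red) correlate at r = 0.81 and all 15657 genes at r = 0.30.

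The differences did not shrink steadily with distance from Tlr3. Within 2.5 Mb of Tlr3, the median size was 0.50 over 24 tested members without tumor and 0.37 over 27 with tumor. From 2.5 to 5 Mb it was 0.71 over 13 and 0.59 over 14, and from 5 to 10 Mb it was 0.56 over 24 and 0.51 over 25. These medians take dim values as read. With bounds in their place, the medians without and with tumor were 0.50 and 0.37 within 2.5 Mb. They were then 0.71 and 0.56 from 2.5 to 5 Mb, and 0.42 and 0.48 from 5 to 10 Mb. Each of these lies above the medians of all genes, 0.29 and 0.20. The median within 2.5 Mb with tumor depends on members dim on an array. Among members well above background on every array, that median fell below 0.20. The median of all genes under that filter is not given here. For these members, an excess within 2.5 Mb with tumor is thus not shown. The members at least 2-fold the same way in both states numbered 2 within 2.5 Mb, 1 from 2.5 to 5 Mb and 5 from 5 to 10 Mb. They ran from 9.95 Mb before Tlr3 (Eri1) to 1.18 Mb after it (Cenpu), with 6 on the side of lower coordinates. The 6 members more than 5 Mb after Tlr3 included no such gene, and their median size was 0.70 without and 0.60 with tumor.

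**Figure D3:**
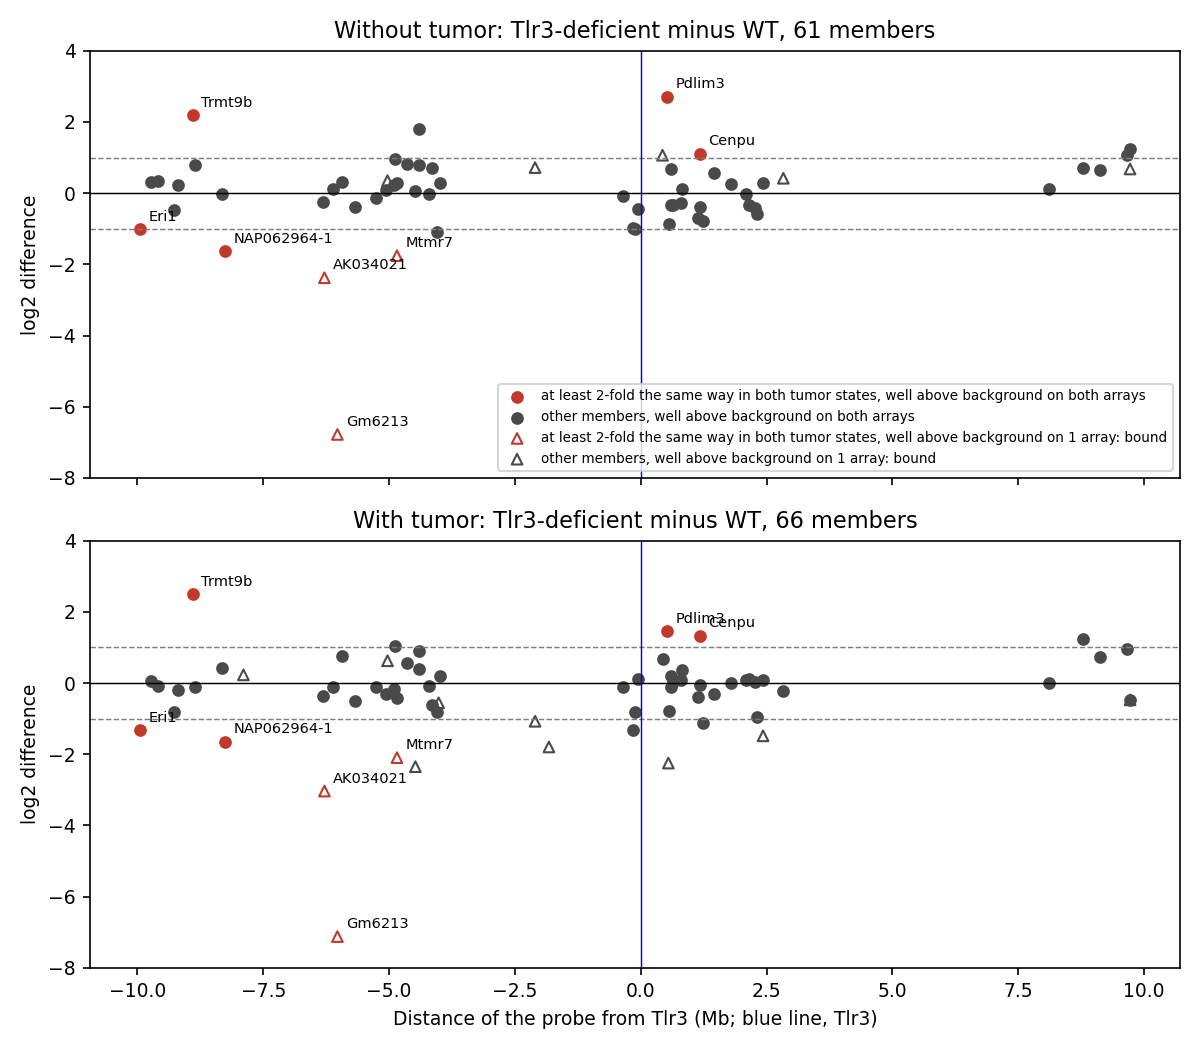
Genotype difference (Tlr3-deficient minus WT, log2) of each member by the distance of its probe from Tlr3 in Mb, without tumor (upper panel) and with tumor (lower panel); triangles are bounds and dashed lines mark 2-fold. Red symbols are the 8 members at least 2-fold apart the same way in both panels, and they lie between 9.95 Mb before and 1.18 Mb after Tlr3.

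Along the rest of chromosome 8, steps of 10 Mb gave few such genes. The step from 10 Mb before Tlr3 up to Tlr3 held 6 of 35 tested genes (17.1%), and the step of 10 Mb after it held 2 of 26 (7.69%). The adjoining steps held 0 of 54 on the lower side and 0 of 16 on the higher side. The other steps held 0 or 1 gene each, at most 2.78%. At the edges of the window, Ppp1r3b, a glycogen-targeting phosphatase subunit 10.03 Mb before Tlr3, differed by -0.15 without and 0.71 with tumor. NAP027238-1, 10.28 Mb before, differed by -0.28 and -0.02. Just inside, Eri1 and Mfhas1 differed by -1.0 and 0.32 without tumor and by -1.33 and 0.05 with tumor. On the other edge, Gm10674 and Gm5927 lay inside with 0.68 and 1.23 without tumor and -0.47 and -0.48 with tumor. The nearest genes outside, 12.29 and 12.32 Mb after Tlr3, were AK051168 (0.19 and 0.38) and Hpgd (0.78 and 0.56), the prostaglandin-degrading enzyme.

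**Figure D4:**
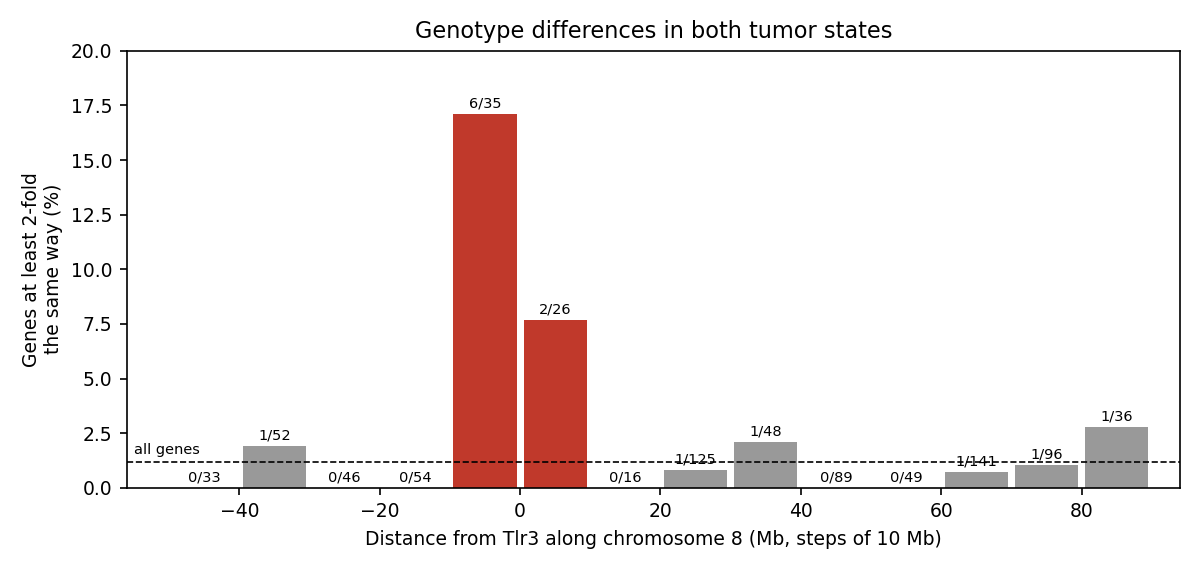
Share of tested genes on chromosome 8 that were at least 2-fold apart between genotypes the same way without and with tumor, in steps of 10 Mb by distance from Tlr3; numbers over the bars are genes called of genes tested and the dashed line is the share of all genes, 1.16%. The steps next to Tlr3 (red) hold 6 of 35 and 2 of 26 genes.

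Many more members differed the same way at a smaller size. At 1.5-fold, 20 of 61 members did so in both states, 32.8%, against 4.23% of all genes and 3.18% of the rest of chromosome 8, while 2 members, Pcm1 and Zfp42, went opposite ways. Of the 20, 9 were higher in Tlr3-deficient cells and 11 lower. Those beyond the 8 above include the following, given with their difference without and with tumor. Cnot7, a deadenylase of the CCR4-NOT complex, differed by 0.95 and 1.04. Pdgfrl, a relative of the platelet-derived growth factor receptor, differed by 1.79 and 0.91. Vegfc, a growth factor for lymphatic vessels, differed by 0.72 and 1.23, and Gpm6a, a membrane glycoprotein, by 1.07 and 0.96. Spcs3, a signal peptidase subunit, differed by 0.66 and 0.72. Sorbs2, an actin-binding adaptor, was not well above background in WT without tumor. It was at least 2.09-fold higher without tumor and 1.59-fold higher with tumor. Its other 3 probes were not well above background on any array.

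On the lower side, F11 and Klkb1, the genes of clotting factor XI and plasma kallikrein, lie next to each other 0.15 and 0.12 Mb before Tlr3. F11 read -2.68 and -3.01 in WT and -3.67 and -4.32 in Tlr3-deficient cells, without and with tumor. Klkb1 read -2.72 and -2.94 in WT and -3.72 and -3.75 in Tlr3-deficient cells. Both were low but well above background on every array. Their differences were -0.99 and -1.31 for F11 and -1.01 and -0.81 for Klkb1. Asah1, the lysosomal acid ceramidase, was bright and differed by -1.10 and -0.82. Cdkn2aip, a regulator of the ARF and p53 proteins, differed by -0.60 and -0.95, and 1700029J07Rik by -0.87 and -0.79.

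The closest neighbours of Tlr3 did not differ as a block. Fam149a, 0.06 Mb away, read 2.17 and 2.19 in WT and 1.73 and 2.31 in Tlr3-deficient cells, without and with tumor, and its groups overlapped. Fat1, an atypical cadherin 0.34 Mb away, was bright on all arrays (3.26 to 3.65) and differed by -0.08 and -0.12. The 5 nearest members after Tlr3 were Sorbs2, Pdlim3, Ccdc110, 1700029J07Rik and Ufsp2. Ufsp2, a protease for the ubiquitin-like protein UFM1, differed by -0.34 and -0.12. Ccdc110, a coiled-coil gene, was well above background on the WT array with tumor alone and was at least 4.75-fold lower in Tlr3-deficient cells there. Beyond these, Ankrd37, an ankyrin repeat gene, differed by 0.69 and 0.19. Snx25, a sorting nexin and the brightest member (5.62 to 5.94), differed by -0.32 and 0.04, and Slc25a4, the mitochondrial ADP/ATP carrier, by 0.11 and 0.37.

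The role lists are short and loosely drawn. Their counts are read beside the shares of all genes (5.91% higher and 2.35% lower without tumor, 2.90% and 2.62% with tumor). The shares of all tested members were 11.5% higher and 11.5% lower without tumor, and 7.58% and 18.2% with tumor. With so few genes in a list, 0, 1 or 2 calls are not read as particular to a role. By role, 9 members encode adhesion, cytoskeleton or muscle proteins. Of these, 2 of 8 tested were higher without tumor (Pdlim3 and Sorbs2) and 1 of 9 with tumor (Pdlim3), and none was lower in either state. Dlc1 differed by 0.79 and -0.12, the microtubule protein Mtus1 by 0.80 and 0.40, Wwc2 by 0.27 and 0.10 and Frg1 by 0.28 and 0.21. The teneurin Tenm3 and the sarcoglycan Sgcz were near the limit of detection. Among genes of mitochondria, lipid and energy, 1 of 6 was lower without tumor (Asah1) and 1 of 6 with tumor (Slc7a2). Acsl1, which activates long-chain fatty acids, differed by -0.69 and -0.39, Primpol, a primase-polymerase, by -0.40 and -0.06, and Micu3, of the mitochondrial calcium uniporter, by 0.10 and -0.29. Slc7a2, a cationic amino acid transporter, read -2.71, -3.07 and -2.66 in WT without tumor, WT with tumor and Tlr3-deficient without tumor, but -5.99 in Tlr3-deficient with tumor. It was low on that array alone, at least 5.09-fold under WT with tumor.

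Of the proteases and clotting genes, 1 of 3 tested was lower without tumor (Klkb1) and 2 of 4 with tumor (F11 and Adam26a). Adam26a, a metalloprotease relative, had a brightest probe well above background on the WT array with tumor alone (-3.62), at least 3.47-fold over Tlr3-deficient with tumor. Another Adam26a probe read -4.86 on that array and -3.90 in Tlr3-deficient cells without tumor, at least 2.55-fold over WT without tumor, so the probes do not give Adam26a a single direction. Fgl1, a fibrinogen-like secreted protein, differed by -0.01 and -0.09. In the list on secreted growth factors and receptors, 2 of 3 were higher without tumor (Pdgfrl and Gpm6a) and 1 of 3 with tumor (Vegfc). Gpm6a, a membrane glycoprotein, is loosely placed in that list. Irf2, a transcription factor of the interferon system, differed by 0.57 without and -0.30 with tumor. In the list on chromatin, DNA repair and transcription, 0 of 6 were called without tumor and 1 of 6 with tumor (Cnot7). Ing2, a chromatin reader, differed by -0.41 and 0.02, Rwdd4a by -0.33 and 0.12 and Stox2 by 0.25 and -0.00069. In the list on trafficking and protein handling, 0 of 9 were called without tumor and 2 of 11 with tumor. Those 2, the coiled-coil gene Ccdc110 and the claudin Cldn22, are loosely placed there, so they say nothing on trafficking. Both are bounds against a dim array. Tusc3, of the oligosaccharyltransferase complex, differed by -0.26 and -0.36. The palmitoyltransferase Zdhhc2 differed by 0.24 and -0.16, and Vps37a, of the ESCRT-I complex, by 0.30 and -0.43. Trappc11, a vesicle tethering subunit, differed by -0.02 and 0.07, and the lysosomal amidase Aga by 0.11 and 0.01.

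The other calls in a single tumor state were few. Without tumor they included Gm5927, a predicted gene at 1.23. With tumor they included Zfp42, a pluripotency-linked zinc finger gene that was at least 2.11-fold lower. Of the 12 members lower with tumor, 8 were bounds, among them Zfp42, Adam26a, Ccdc110 and Cldn22, whose levels in WT with tumor were -4.34 to -3.17. Fibroblast markers (6 of 6 well above background on every array) had summed levels of 4.88 and 4.61 in WT and 5.66 and 4.50 in Tlr3-deficient cells, without and with tumor. Pdlim3 and Pdgfrl were highest on the same array, Tlr3-deficient without tumor. With tumor, single fibroblast markers went both ways between genotypes. Pdgfra (0.37 against -0.26 in WT) and Dcn (3.31 against 3.25) were higher in Tlr3-deficient cells. Col1a1, Col1a2, Col3a1 and Lum were lower. Alveolar type I markers (8 of 8 well above background on every array) summed to 7.68 and 7.07 in WT and 8.15 and 7.43 in Tlr3-deficient cells. Endothelial markers (6 of 6) summed to 5.33 and 4.91 in WT and 5.71 and 5.34 in Tlr3-deficient cells. Both sums were higher in Tlr3-deficient cells in both states. Pdlim3, Trmt9b and Cenpu were also higher, but the call that chose them requires it, and 5 other members chosen by it were lower. Without tumor, Ager (5.43 against 5.50 in WT) and Dcn (2.99 against 3.12) were lower in Tlr3-deficient cells, and the other markers of their lists were higher. The part of fibroblasts, alveolar type I cells and endothelial cells in the members' values was not tested. In such bulk samples, fewer cells of a type and less RNA per cell cannot be told apart.

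Between tumor states in WT, the share of members called was near that of all genes. In Tlr3-deficient cells it was lower, resting on 3 calls. In WT, 5 of 64 tested members were called, 7.81% against 7.20% of all genes. All 5 were higher with tumor (background 5.64%) and 0 were lower (background 1.56%). They were Ccdc110 (at least 4.24-fold), Adam26a (at least 3.09-fold), Sorbs2 (at least 2.80-fold), Cldn22 (at least 2.10-fold) and Gm5927 (2.23-fold). All 5 were low in WT without tumor, at -4.89 or less, and 4 of the 5 are bounds. In Tlr3-deficient cells, 3 of 59 were called, 5.08% against 8.40% of all genes. Of these, 1 was higher (background 4.51%) and 2 were lower (background 3.89%). Slc7a2 was at least 6.75-fold lower, Pdlim3 2.03-fold lower and Sorbs2 2.13-fold higher, which turned to -0.31 (log2) with the mean of its probes. Each tumor comparison shares an array with each genotype comparison, so these values are not independent of the ones above. Summed neutrophil markers stood at 1.43 without and 6.62 with tumor in WT, and at 1.66 and 6.03 in Tlr3-deficient cells, and their part in the tumor differences was not tested.

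Different probes of a member could be compared in 21 cases. For these members with several probes well above background on all 4 arrays, the median range between probes was 0.41 without and 0.34 with tumor. The other Pdlim3 probe differed by 2.46 and 1.60 between genotypes, against 2.71 and 1.46 for the brighter one. The other Trmt9b probe differed by 2.59 and 2.84. The other Cenpu probe differed by 0.69 without tumor, under 2-fold, and by 1.41 with tumor. The other Mtmr7 probe was well above background on 1 array. The other Eri1 probes differed by -0.30 and -0.66 without tumor and by -0.24 and -0.64 with tumor, so the 2-fold call of Eri1 holds for its brightest probe only. Mtus1 had the widest range without tumor, 2.38, with 1 of its 4 probes at 2.05. Gm6213, AK034021 and NAP062964-1 each had a single probe.

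What the 8 members share beyond position is limited. Their median level over the arrays was -2.24, against -0.45 for the other 58. Of the 8, 6 are named in RefSeq, and 3 carry names of predicted or unassigned transcripts, as do 10 of the other 58. Gene names in the window that did not pass the background filter numbered 55. Among them were Msr1, the macrophage scavenger receptor, the melatonin receptor Mtnr1a, the growth factor Fgf20, the DNA glycosylase Neil3, the choline phosphodiesterase Enpp6 and the testis proteases Adam24 and Adam39. For these no genotype difference can be given.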

How the data were processed

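Gene expression was measured on 4 arrays, 1 per group, of alveolar type II cells from WT and Tlr3-deficient mice without or with tumor. The deposited files hold 1-colour Cy3 intensity values on array design 014868, read with Agilent's Feature Extraction program, version 10.7.3.1 per the file headers, which subtracted background and detrended each array without scaling between arrays. The authors also deposited a value table in log2 units, whose making the sources used here do not describe. It correlated with the log2 scanner values at r = 0.9995 to 0.9998 and had near-equal medians, but gave Tlr3 other values, and it served only as an alternative.

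Here, log2 processed intensity was centred on each array's 75th percentile over gene probes. Outlier-flagged spots were dropped and replicate spots averaged. The brightest probe by its mean over the arrays stood for a gene name. Of the 66 members, 54 had a symbol in a RefSeq table of GRCm38 used for names only, and 6 array names were updated through it (such as Mlf1ip to Cenpu and 6430573F11Rik to Trmt9b). Coordinates come from the array's mm9 annotation. The number of arrays limits the precision. The procedure was tested on simulated data.

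Alternatives were quantile normalization, median centring, normexp (limma 3.58.1, R 4.3.3, offset 50), the mean of all probes, other filters on dim probes, the value table, array columns 52 to 85, a 1.5-fold threshold and a window of 5 Mb. Members and lists were chosen with earlier results of these data known. Members named in the text are those called the same way in both genotype comparisons, the 10 largest in each genotype comparison, the 5 nearest to Tlr3 on each side, the 3 largest in each tumor comparison and the members of 7 role lists. In these lists 1 member is not reported here. Members named only for a difference of 1.5-fold, the dim gene names and Zfp42 were singled out after their values were seen.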

Additional observations from a re-analysis of the deposited data

Results flagged for a closer look

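For 2 members well above background on all arrays, the genotype difference took opposite signs without and with tumor and moved by at least 2-fold between the states. Gm5927, a predicted gene of low level, differed by 1.23 without and -0.48 with tumor, a change of -1.70. Pcm1, a protein of centriolar satellites, differed by 0.71 and -0.61, a change of -1.32, and was under 2-fold in each state. Pcm1 read 1.5 and 2.48 in WT and 2.21 and 1.87 in Tlr3-deficient cells, without and with tumor. Its other probes differed by 0.24 and 0.25 without tumor and by -0.15 and -0.05 with tumor. With 1 array per group, these differences between the states were not tested.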

How the results depend on the processing

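The excess of members called the same way in both genotype comparisons held under each setting that changed scaling, probes or filter, at 6.56% (normexp) to 27.3% (array columns 52 to 85) of members tested, against 0.627% to 1.75% of all genes. Trmt9b and Pdlim3 kept their calls in both states in 8 of 8 such settings, and AK034021 and Gm6213 in 7 of 7. Eri1 lost its call in 4, Cenpu in 3, Mtmr7 in 2 and NAP062964-1 in 1.

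With normexp, whose offset shrinks differences of dim genes, 9 members (13.6%, against 2.39% of all genes) were called between genotypes with tumor, 1 with tumor in WT, 1 with tumor in Tlr3-deficient cells and 4 the same way in both states, and the median size at 5 to 10 Mb with tumor was 0.39. With the mean of all probes, 1 was called with tumor in Tlr3-deficient cells and 5 the same way in both, the median at 2.5 to 5 Mb without tumor was 0.40, and Sorbs2 with tumor in Tlr3-deficient cells reversed to -0.31. With no filter on dim probes, 29 of 121 (24.0%, against 11.4% of all genes) were called between genotypes without tumor, 9 with tumor in WT, 11 with tumor in Tlr3-deficient cells and 14 the same way, and the medians at 2.5 to 5 Mb were 0.30 without and 0.16 with tumor. With the filter set to all 4 arrays, 9 of 52 (17.3%, against 2.94%) were called between genotypes with tumor, 1 in each tumor comparison and 5 the same way, and the median within 2.5 Mb with tumor was 0.16. That median lies below the 0.20 of all genes tested with tumor, whose median under this filter is not given. On array columns 52 to 85, 2 were called with tumor in WT and 1 in Tlr3-deficient cells, and the medians were 0.90 without and 0.86 with tumor at 5 to 10 Mb and 0.26 with tumor at 2.5 to 5 Mb. At 1.5-fold, 20 of 61 members were called the same way in both states (32.8%, against 4.23% of all genes). In a window of 5 Mb, 3 were called the same way at 2-fold, since 5 of the 8 lie farther from Tlr3. They were 2 of 24 within 2.5 Mb and 1 of 13 from 2.5 to 5 Mb, against 1.16% of all genes. The members called the same way were 6.56% with normexp (all genes 0.627%) and 8.06% with the mean of all probes (1.02%). They were 11.6% with no filter on dim probes (1.75%) and 9.62% with the filter set to all 4 arrays (0.875%). The counts of tumor calls given here stand without shares of all genes and are not read as an excess or a lack.

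Without tumor, the calls over all genes split into 1033 higher and 410 lower, but 822 and 508 with quantile normalization and 835 and 513 with median centring. In WT, tumor calls split into 1006 higher and 278 lower, against 731 and 370 and 719 and 411. Median centring and normexp put the median of all genes at -0.14 and -0.15 between genotypes without tumor. On array columns 52 to 85, 8874 genes were tested between genotypes without tumor, and 186 were higher and 235 lower. WT tumor calls split there into 276 higher and 124 lower. The brightest probes of Sorbs2, Pdgfrl, Gm5927, Trmt9b and Cenpu, all called higher without tumor, lie outside these columns. The cause of these shifts was not tested. No paired analysis was possible because each group is 1 array and the labels carry no replicate numbers. Dim members give bounds only, and differences between animals cannot be judged from 1 array per group.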
